A study of Mus musculus with 2 samples.

Results

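The digestive lipases of the pancreas were measured in pancreatic lymph nodes of diabetic mice as 6 genes: Pnlip, Pnliprp1, Pnliprp2, Cel, Clps and Pla2g1b. They were found by gene name among the non-control probes of a mouse whole-genome array, which gave 7 probes (2 for Pnlip and 1 for each other gene) of 41174 probes and 27845 gene names in all. Each of 2 arrays compared 1 hyperglycemic mouse, labelled with Cy5, with the same pool of 2 euglycemic mice, labelled with Cy3. All mice were female, of the NOD strain and 16 weeks old. NOD is an inbred line that develops autoimmune diabetes spontaneously. Glucose in blood exceeded 500 mg/dl in the former and was under 200 mg/dl in the latter, and the labels name no transgene or treatment. Since 1 pool served as the control, variation among euglycemic mice is unknown, and n = 2 counts hyperglycemic mice throughout. The dyes were not swapped, so a probe's dye effect and a group difference cannot be told apart.

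These genes belong to the acinar cells of the exocrine pancreas, which pack digestive enzymes into zymogen granules and secrete them into the gut. Pancreatic triglyceride lipase, encoded by Pnlip, cleaves dietary fat and is held at the bile-coated fat droplet by its cofactor colipase, encoded by Clps. Pnliprp1 and Pnliprp2 are its close relatives, Cel is the bile salt-stimulated carboxyl ester lipase that also cleaves cholesterol esters, and Pla2g1b is the secreted phospholipase A2 that digests phospholipids. Lymph nodes beside the pancreas receive its lymph and make no digestive juice themselves. Pnliprp2 is also known from activated cytotoxic T cells and Pla2g1b from lung.

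Probe positions are those of mouse build mm8 in the files, where exons and introns were not annotated here. The Pnlip probes lie on chromosome 19 at 58727102 to 58727161 (A_51_P520552, here the first probe) and at 58734056 to 58734115 (A_52_P584279, the second probe, farther from the gene's start). The Pnliprp1 probe covers 58793788 to 58794381 on chromosome 19, an interval of 594 bases where the other probes cover 60, and the Pnliprp2 probe covers 58827320 to 58827379 of the same chromosome. The Cel probe lies on chromosome 2 at 28378098 to 28378157, the Clps probe on chromosome 17 at 28285886 to 28285945, and the Pla2g1b probe on chromosome 5 at 115735580 to 115735639. In the RefSeq gene table Pnlip, Pnliprp1 and Pnliprp2 follow each other on chromosome 19 with 0 protein-coding genes between them.

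The Cy5 channel was the dim one. Over all gene probes its median signal was 37.6 and 38.2 over a local background of 35 on each array, against 228 and 79.4 in Cy3. In Cy3 21.2% of probes on array 1 and 62.4% on array 2 were well above background, against 14.1% and 15.9% in Cy5. The brighter Cy3 median of array 1 thus did not go with more probes above background. All 7 lipase and colipase probes were clearly above background (the scanning software's flag) in Cy3 and Cy5 of each array, and none was saturated. Of 19 acinar marker genes on the array 18 were well above background in Cy5 on both arrays, the exception being the transcription factor Ptf1a. The same held for 0 of 6 duct and 0 of 12 islet markers, 5 of 7 T cell markers (not Cd3e or Cd4), 3 of 6 B cell markers, 4 of 7 lymph node stroma markers and 2 of 6 adipocyte markers. With 2 arrays, precision is limited for each value.

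Transcripts of all 6 genes gave strong signals in the lymph nodes of hyperglycemic and euglycemic mice alike. Clps, Pnliprp1 and Pnlip were called higher in the dye-normalized log ratios of the scanning software, with both hyperglycemic mice above the pool. Their means over both arrays were 1.44-fold to 1.87-fold, and single arrays ran from 1.25-fold to 2.04-fold. These calls were lost, with Pnlip turning negative, under normexp background correction with median centring. They were also lost, with every other call on the arrays, when probes dim in 1 or in both channels were kept for the test of the log ratios. Pnliprp2, Cel and Pla2g1b did not pass the test, and Cel was below the pool in one mouse and above it in the other. Ratios are log2 of Cy5 over Cy3, positive where the hyperglycemic mouse was higher, and means are given ± SD (n = 2). A probe was called where limma gave an adjusted p under 0.05 over 5068 probes flagged so in every channel of each array. A different number of acinar cells and a different amount of these transcripts in each cell cannot be told apart in such bulk samples.

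Colipase had the highest ratio. The background-subtracted Clps signal was 144111 in Cy3 and 5826 in Cy5 on array 1, and 74157 in Cy3 and 7517 in Cy5 on array 2. After dye normalization its log2 ratio was 0.78 on array 1 and 1.03 on array 2. Both mice were thus above the pool, with a mean of 0.90 ± 0.18, a 1.87-fold difference (limma 95% interval 1.44-fold to 2.42-fold, adjusted p = 0.00462).

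Pnlip, the triglyceride lipase, was read by both of its probes. The first probe gave 126052 in Cy3 and 2957 in Cy5 on array 1, and 67614 in Cy3 and 6090 in Cy5 on array 2. Its log2 ratio was 0.32 and 1.03, a mean of 0.67 ± 0.50 or 1.60-fold (limma adjusted p = 0.0312). The second probe gave 131973 and 3575 on array 1, and 59095 and 3968 on array 2, in Cy3 and Cy5. Its log2 ratio was 0.38 and 0.68, a mean of 0.53 ± 0.21 or 1.44-fold (limma adjusted p = 0.0348). Both probes put both mice above the pool, but the step from mouse 1 to mouse 2 was 0.71 by the first probe and 0.30 by the second.

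Pnliprp1 is a lipase-fold protein with little lipase activity of its own. Its probe gave 135309 in Cy3 and 5206 in Cy5 on array 1, and 65868 in Cy3 and 5963 in Cy5 on array 2. The log2 ratios were 0.69 and 0.90, a mean of 0.79 ± 0.15 or 1.73-fold (limma 95% interval 1.34-fold to 2.24-fold, adjusted p = 0.00709). Both mice were above the pool, 0.21 apart.

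Pnliprp2, a lipase of broad substrate range, gave 28423 in Cy3 and 391 in Cy5 on array 1, and 15083 in Cy3 and 507 in Cy5 on array 2. Its log2 ratios of 0.13 and 0.33 were both above 0, with a mean of 0.23 ± 0.14 (limma 95% interval -0.14 to 0.60, adjusted p = 0.271). The local Cy3 background of this spot on array 1 was 215, against 29.5 to 33.5 at the other probes' spots on that array.

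Cel gave 200148 in Cy3 and 3871 in Cy5 on array 1, and 114193 in Cy3 and 8838 in Cy5 on array 2. Its log2 ratio was -0.27 in mouse 1 and 0.54 in mouse 2. The mean of 0.13 ± 0.58 has a limma 95% interval from -0.37 to 0.64 (adjusted p = 0.641), so the spread between the mice exceeded the mean.

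Pla2g1b gave 25978 in Cy3 and 259 in Cy5 on array 1, and 14941 in Cy3 and 319 in Cy5 on array 2. Its log2 ratios of -0.04 and -0.19 were the only pair with both values below 0 among the 6 genes. The mean was -0.11 ± 0.10 (limma 95% interval -0.48 to 0.25, adjusted p = 0.582).

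**Figure D1:**
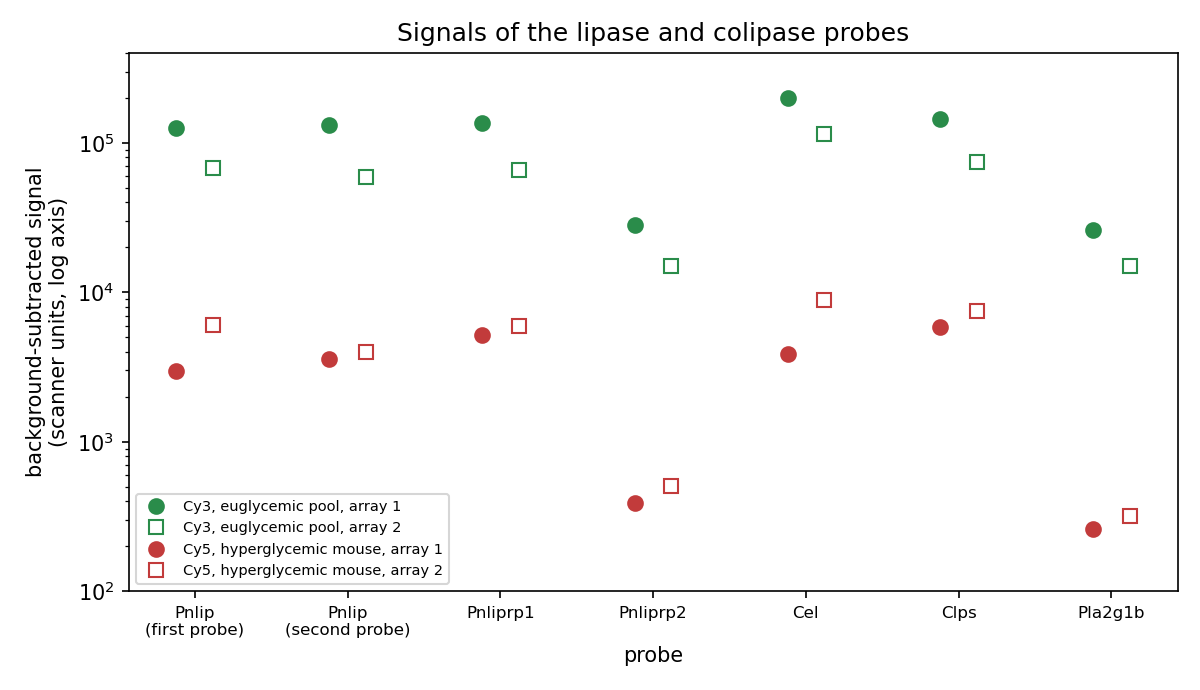
Background-subtracted signal (scanner units, log axis) of each of the 7 probes, with Cy3 (euglycemic pool) in green, Cy5 (hyperglycemic mouse) in red, array 1 filled and array 2 open. In every probe Cy3 is above Cy5 before dye normalization, and from array 1 to array 2 Cy3 is lower and Cy5 higher.

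**Figure D2:**
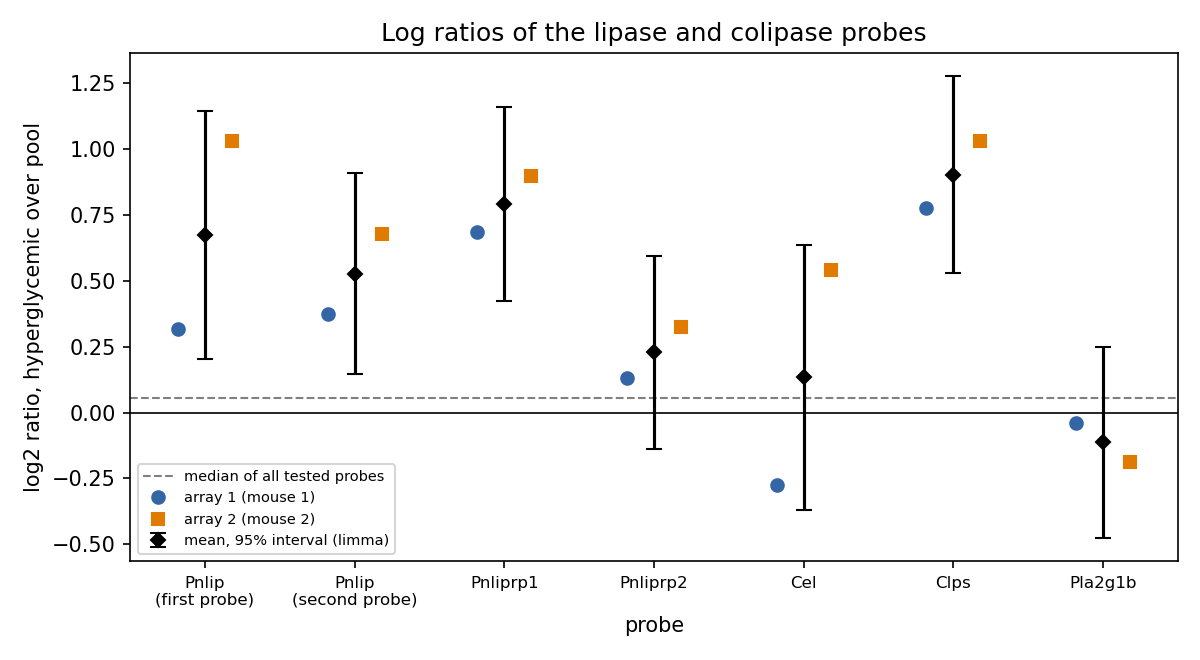
Log2 ratio of hyperglycemic mouse over pool for each probe (circles, array 1; squares, array 2), with the mean and its 95% interval from limma (diamonds) and the median of all tested probes as a dashed line. The intervals of Clps, Pnliprp1 and both Pnlip probes lie above 0, whereas those of Pnliprp2, Cel and Pla2g1b include 0; with normexp and median centring both Pnlip probes are below 0.

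In all, 4 of 7 probes were called higher, which is 3 of 6 genes, and 0 lower. Of all 5068 tested probes 25.2% were called higher and 18.4% lower, so the call that these 4 probes have is a common one on these arrays. The median ratio over the 6 genes was 0.45, with 0.22 on array 1 and 0.72 on array 2, against a median of 0.06 over all tested probes. All 7 probes were among the 507 brightest tested probes, where the median ratio was -0.00050 and 22.1% were called higher.

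The genes ranked in the order Clps, Pnliprp1, Pnlip (first probe, the brighter by the mean over channels and arrays, though not on array 1), Pnliprp2, Cel and Pla2g1b by mean ratio. Clps exceeded Pnliprp1 by 0.11 ± 0.03 and Pnlip exceeded Pnliprp2 by 0.45 ± 0.37, with the same sign on both arrays and a mean beyond the SD. The other neighbours did not differ beyond their spread: 0.12 ± 0.35 between Pnliprp1 and the first Pnlip probe, 0.09 ± 0.44 between Pnliprp2 and Cel, and 0.25 ± 0.68 between Cel and Pla2g1b. The second Pnlip probe, at 0.38 and 0.68, was below Pnliprp1, at 0.69 and 0.90, on both arrays. The result for Pnliprp1 and Pnlip thus depends on the Pnlip probe. At the ends of the order, Clps exceeded Pla2g1b by 0.82 on array 1 and by 1.22 on array 2. These differences are given without a test.

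The pool was the same RNA on both arrays, so its change between them shows how the reading itself varied, and the Cy5 change adds the difference between the mice. Background-subtracted Cy3 of the 7 probes was lower on array 2 by 0.80 to 1.16 on the log2 scale, where the median tested probe moved by -0.77 and the 5th percentile was -1.02. The second Pnlip probe (-1.16) and Pnliprp1 (-1.04) lay below that percentile. In Cy5, mouse 2 exceeded mouse 1 by 2.28-fold at Cel and by 2.06-fold at the first Pnlip probe, or 1.19 and 1.04 on the log2 scale. Both lay above the 95th percentile of all tested probes, 1.02. The other 5 probes were 1.11-fold to 1.30-fold higher in mouse 2, near the 1.23-fold of the median probe. The second Pnlip probe was among them at 1.11-fold, so the probes of Pnlip disagree on how much the mice differed. The letters of the probes were not used here, and cross-hybridization among the related lipases was not tested.

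**Figure D3:**
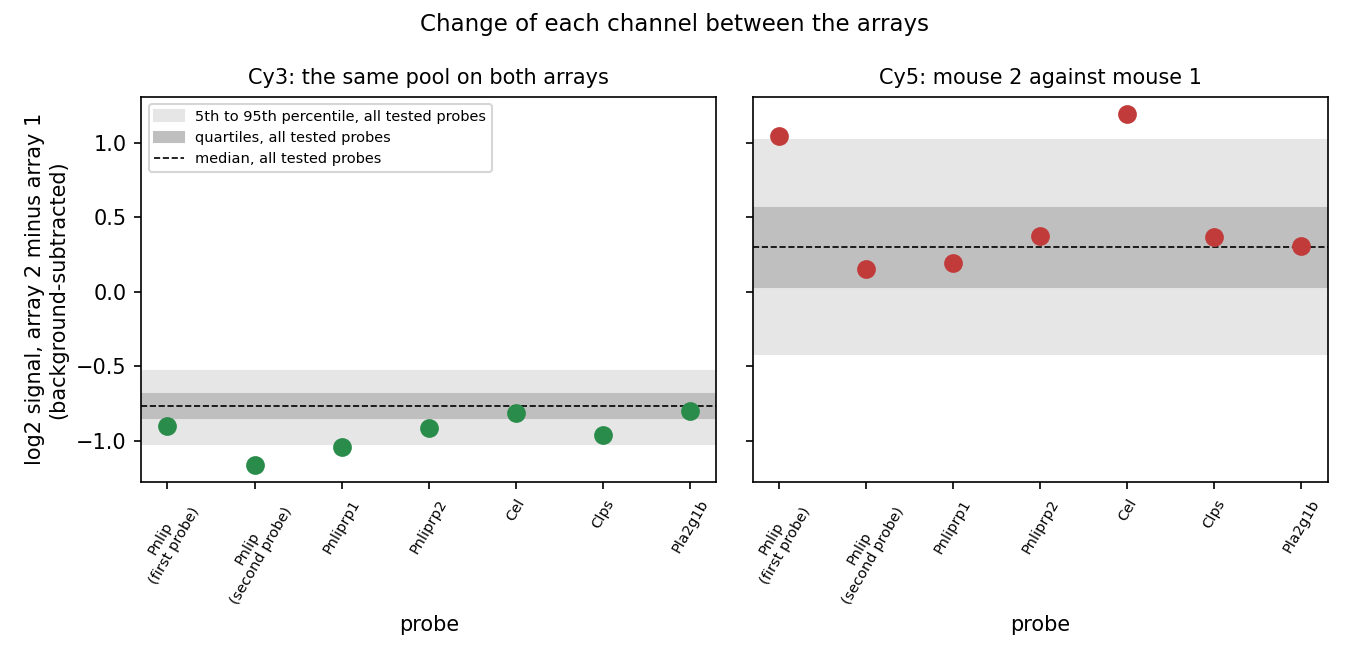
Change of background-subtracted signal from array 1 to array 2 (log2) for each probe, in Cy3 at left (the same pool on each) and Cy5 at right (mouse 2 against mouse 1), over the quartiles and the 5th to 95th percentiles of all tested probes. Cel and the first Pnlip probe stand above the band in Cy5 and not in Cy3, and the second Pnlip probe stands below it in Cy3.

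The size of every ratio rested on the dye normalization. Before it, Cy3 exceeded Cy5 by 104-fold on array 1 and 48.8-fold on array 2 at the median tested probe. The lipase and colipase probes were less skewed, from 24.7-fold (Clps) to 100.4-fold (Pla2g1b) on array 1 and from 9.86-fold (Clps) to 46.8-fold (Pla2g1b) on array 2. With each array centred on the median of these background-subtracted ratios, and no correction by intensity, the 6 genes had a median of 1.59 and 6 of 7 probes were called higher, Pla2g1b at 0.055 being the exception, where 24.5% of all tested probes were called higher and 22.5% lower.

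The background-subtracted signals were tested on the same filter as the log ratios, 5068 probes. Normexp and uncorrected signals were tested on 8804 probes, those above background in at least 1 channel of each array. Normexp background correction with loess on the scanner signals gave a median of 4.66 for the 6 genes. It also called 6 of 7 probes higher (background 4.77% higher and 0.488% lower), again not Pla2g1b (0.85, limma adjusted p = 0.0817). Median centring of the same corrected signals, on the 8804 probes, gave a median of -0.48. It called 0 probes higher and 2 lower, Pnliprp2 at -1.34 and Pla2g1b at -1.84. Its centring and its calls thus differ from those of the log ratios in the probes kept as well as in the correction. Of all tested probes 32.0% were called higher and 34.5% lower there. Of all calls 57.8% were higher in the log ratios, 90.7% after normexp and loess, and 48.1% after normexp and median centring. The log ratios were also tested with this filter on 1 channel, which left the 7 ratios as they were. There limma called 0 of 8804 probes in either direction, against 3391 at an unadjusted p under 0.05. The limma adjusted p values were then 0.0801 for Clps, 0.0884 for Pnliprp1, and 0.169 and 0.156 for the first and second Pnlip probes. The median of all tested ratios moved from 0.06 to -0.18.

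The ends of the gene order varied less than the size of the ratios, while the order between them moved with the processing. Cel (0.13) was below Pnliprp2 (0.23) in the log ratios. With normexp (offset 50) and loess Cel, at 4.75, was above Pnliprp2, at 1.61, and also above Pnlip, at 4.58. By mean over both arrays, Clps was the highest and Pla2g1b the lowest of the 6 genes under all 11 processings run, which hold 7 distinct sets of ratios made from the same 2 arrays. The difference between Clps and Pla2g1b ran from 0.85 to 4.55. On array 1 alone Pla2g1b was the lowest in 5 of 11 processings, and on array 2 Clps was the highest in 10 of 11.

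**Figure D4:**
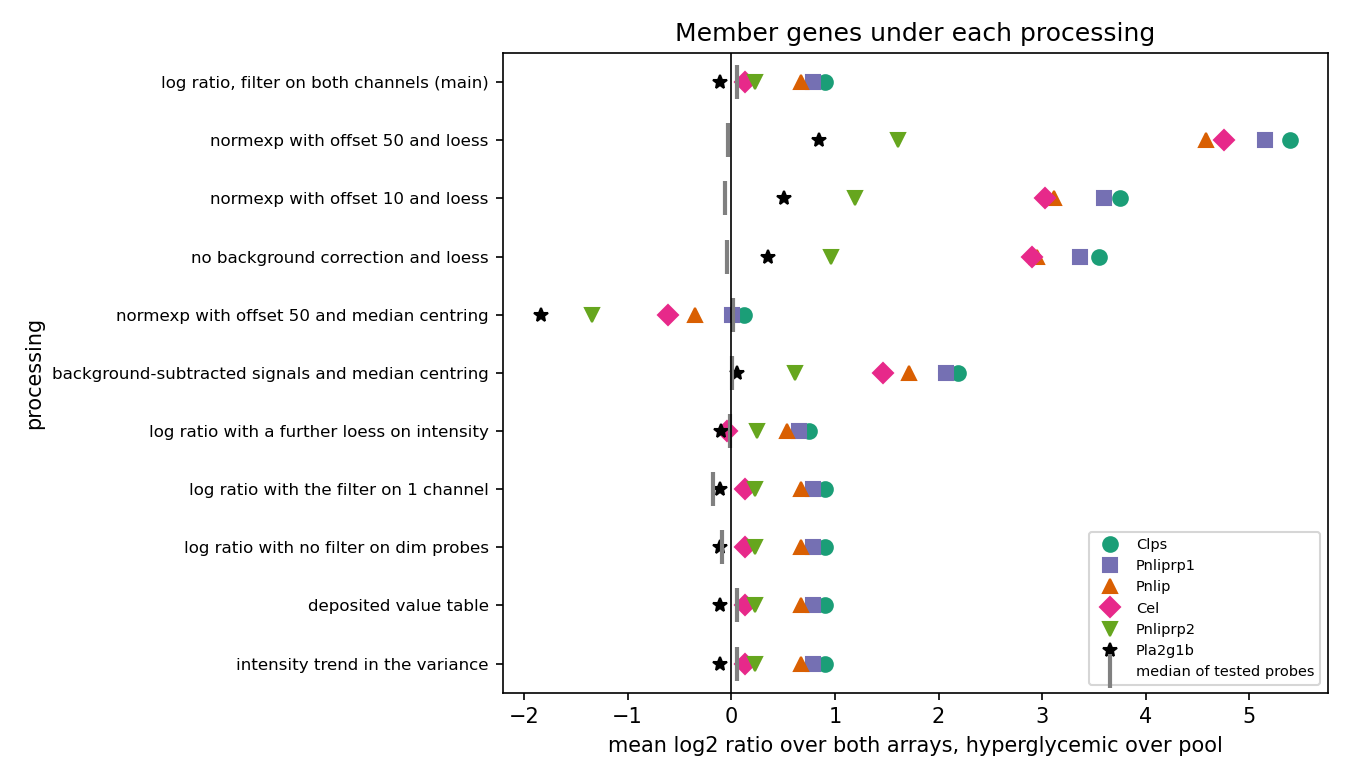
Mean log2 ratio over both arrays of the 6 genes under each of the 11 processings, with the median of all tested probes as a grey bar. Clps is at the right and Pla2g1b at the left end in each row, while the median of the 6 genes runs from -0.48 to 4.66.

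Promoter sequences are shown for the genes that bear on these differences: Pnlip and Pnliprp1, neighbours that were both called higher, and Cel, which went in opposite directions in the mice. They are the 250 bases before the annotated start from RefSeq (build GRCm38.p6), which held 5 of the 6 genes. Capitals mark CACCTG (an E-box of the kind bound by the acinar factor PTF1), TTTCCC (the other part of PTF1 sites) and TATAAA, each searched on both strands, so reverse complements count too. The motifs do not overlap each other. The windows are chr19:58670115-58670364 (plus strand) for Pnlip, chr19:58728637-58728886 (plus strand) for Pnliprp1 and chr2:28563404-28563653 (minus strand) for Cel.
Pnlip: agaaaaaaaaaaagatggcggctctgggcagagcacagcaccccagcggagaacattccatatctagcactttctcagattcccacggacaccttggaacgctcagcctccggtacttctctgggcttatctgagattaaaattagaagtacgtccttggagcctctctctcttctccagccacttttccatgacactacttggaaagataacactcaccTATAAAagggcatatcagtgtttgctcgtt
Pnliprp1: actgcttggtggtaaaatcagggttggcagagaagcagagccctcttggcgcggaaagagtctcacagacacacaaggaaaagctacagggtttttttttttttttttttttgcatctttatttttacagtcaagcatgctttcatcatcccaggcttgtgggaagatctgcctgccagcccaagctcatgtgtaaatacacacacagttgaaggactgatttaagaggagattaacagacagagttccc
Cel: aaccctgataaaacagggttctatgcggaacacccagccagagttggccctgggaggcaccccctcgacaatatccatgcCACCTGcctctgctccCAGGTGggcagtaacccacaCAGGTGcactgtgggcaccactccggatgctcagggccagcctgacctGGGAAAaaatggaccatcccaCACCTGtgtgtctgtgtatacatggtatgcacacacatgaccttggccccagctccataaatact
The Cel window held 4 copies of CACCTG, the nearest starting 65 bases before the start, and 1 of TTTCCC, read as GGGAAA from base 86 before the start. Of all 32851 promoters listed, 17.2% held CACCTG, 21.9% TTTCCC and 3.61% both. The Pnlip window held TATAAA from base 30 before the start, a motif that 12.4% of promoters held. The Pnliprp1 window held none of the 3, nor did that of Pla2g1b, and that of Pnliprp2 held 1 CACCTG. The motifs were searched on 2 genes called higher in the log ratios and on 3 that were not, and these matches are descriptions of letters, not of binding.

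Other acinar genes were read on the same arrays, and here a gene with several probes took its brightest probe. The summed processed signal of the 19 acinar markers was 1453000 and 2160000 in Cy3, and 1885000 and 3350000 in Cy5, on arrays 1 and 2. The sum weighs bright genes most. Of 18 acinar markers tested, 8 were called higher and 3 lower, with a median of 0.30, where 25.4% of 4402 genes were called higher and 18.2% lower. The sum of the T cell markers moved the other way, with 13730 and 21280 in Cy3 against 5203 and 9161 in Cy5. All 5 T cell markers that were measured were called lower, with a median of -1.58. Of 3 measured B cell markers 2 were called lower, with a median of -0.48. With normexp (offset 50) and loess 1 T cell and 0 B cell markers were called lower. With offset 10, with the filter on 1 channel or with no filter it was 0 of each. Under the other processings all 5 T cell markers and 1 to 3 B cell markers were called lower. In the log ratios 2 of 4 measured stroma markers were called higher and 1 lower, and of 2 adipocyte markers 0 and 1. These counts moved with the processing too. The part of these markers in the lipase ratios was not tested. Of 17 measured acinar proteases and amylases, with ribonuclease, 6 were called higher and 3 lower, against 25.4% and 18.2% of 4402 genes, with a median of 0.18 (0.01 on array 1 and 0.37 on array 2). Among those called were trypsin Try5 (1.51 ± 0.18), the highest, and, as the lowest, the related amylases Amy2a5 (-2.15 ± 0.13) and Amy1 (-1.82 ± 0.02), both of which were above 0 after normexp and loess. Of 14 measured granule and Reg genes 4 were called higher and 0 lower, with a median of 0.44 (0.12 and 0.63): Reg3b (2.16 ± 2.55), Zg16 (0.66 ± 0.51), Sycn (0.56 ± 0.17) and Pdia2 (0.48 ± 0.23). These counts moved with the processing as those of the lipases did. With normexp (offset 50) and loess 16 proteases and amylases were called higher and 0 lower, with background-subtracted signals and median centring 14 and 2, and with median centring after normexp 2 and 8. The granule and Reg genes gave 8 and 0, 8 and 0, and 0 and 7 under the same processings, and with median centring after normexp the medians of both lists, like that of the lipases, were below 0.

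By distance between pairs of ratios, the acinar genes nearest to the median pair of the lipases (0.22 and 0.72) were Ctrc (0.29 and 0.62, distance 0.11), Pdia2 (0.12), Prss3 (0.18), Erp27 (0.19) and Sycn (0.22), of 33 ranked. They encode a chymotrypsin, an acinar disulfide isomerase, a trypsin, an endoplasmic reticulum protein and a granule protein, and the likeness rests on 2 arrays alone.

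**Figure D5:**
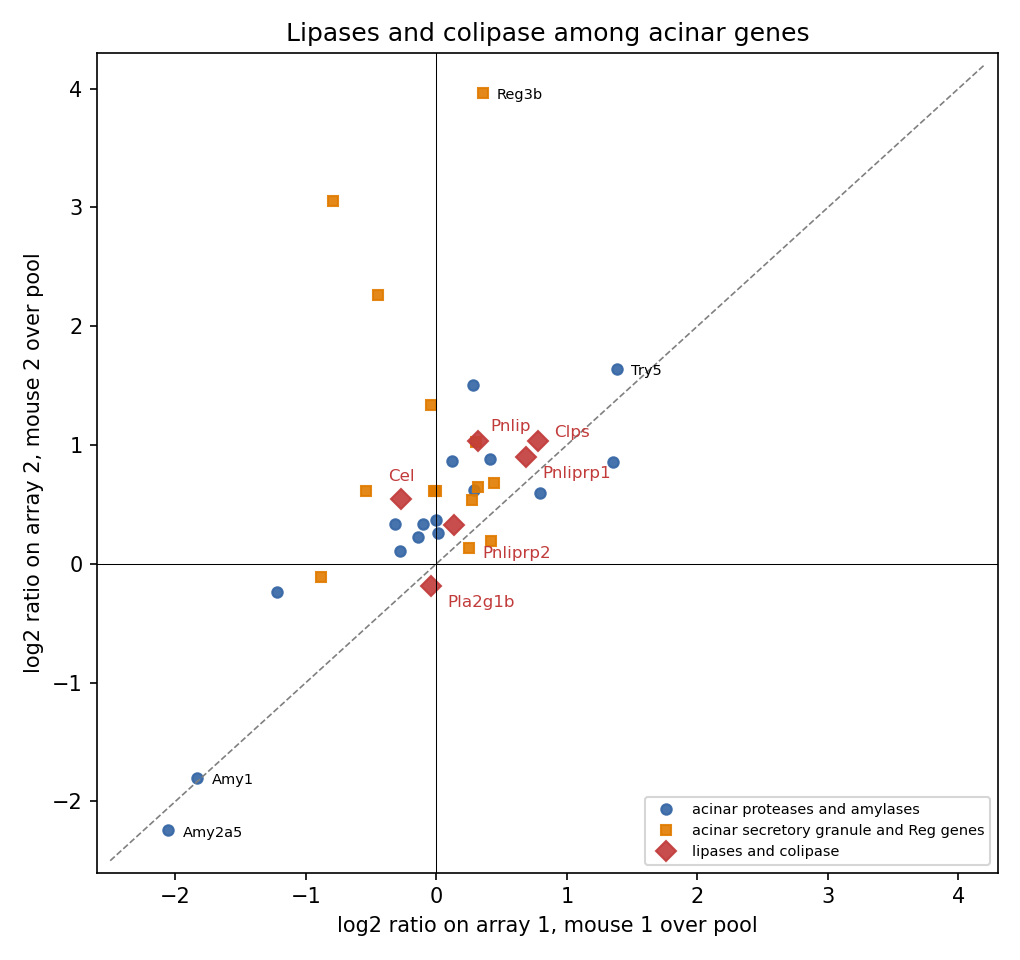
Log2 ratio on array 2 against array 1 for the 6 lipase and colipase genes (red diamonds) and measured acinar proteases and amylases (blue) and granule and Reg genes (orange), with the line of equal ratios dashed and 1 measured gene not shown. Clps, Pnliprp1, Pnlip, Pnliprp2 and Cel lie above the line, Pla2g1b below it, and the amylases Amy2a5 and Amy1 far from all 6.

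Lipases and phospholipases A2 that are not pancreatic enzymes were read too. Of 35 on the array, 5 were flagged so in every channel of each array. Pnpla2, the triglyceride lipase of lipid droplets, was called higher at 0.78 ± 0.37 and was at -0.63 with median centring after normexp. Plaat3, a phospholipase of fat tissue (-0.84 ± 0.54), Pla2g2d, a secreted phospholipase of lymphoid organs (-0.83 ± 0.27), and Mgll, which cleaves monoglycerides (-0.77 ± 0.26), were called lower. With normexp (offset 50) and loess 0 genes of this list were called in limma, with Plaat3 at -0.24 (adjusted p = 0.252), Pla2g2d at -0.34 (0.243), Mgll at -0.25 (0.253) and Pnpla2 at 0.34 (0.193). Lpl, the lipoprotein lipase of the same family as Pnlip and the one measured gene not called, was at 0.0042 ± 0.12 (limma adjusted p = 0.985).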

How the data were processed

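Per the file headers, Agilent's Feature Extraction (version 10.7.3.1) quantified the authors' scans, and its spot and background columns hold scanner intensity. Its processed intensity values were background-subtracted, detrended and dye-normalized (LOWESS parameters are listed), and the log ratio is log10 of Cy5 over Cy3, per the file headers. The deposited value table holds log2 ratios for 5072 gene probes, of which 5068 are those tested here. Per the labels, 1 ug of total RNA was labelled per sample.

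Log10 ratios were turned into log2, flagged spots (614 and 266) left out and spots of a probe averaged. limma 3.58.1 (R 4.3.3) tested each mean against 0 with 1 residual and 6.35 prior degrees of freedom, two-sided, with Benjamini-Hochberg adjustment over all tested probes, and every p in the text is from it. On simulated ratios of 5068 probes, 98 of 100 changes of 1 and 100 of 100 of 2 (log2) were called, and 14 of 4868 unchanged probes. The simulated arrays had independent errors around 0, without a dye effect or a shared pool. These counts therefore test the code and do not give the rate of false calls on the real arrays. Alternatives were normexp (offset 50 or 10) or no correction with loess (span 0.3), median centring on the tested probes, other filters, and the deposited table. Those with normexp or with no correction kept probes above background in at least 1 channel of each array. Probes were named through accession (23483), symbol (6678) or synonym (2887) in a GRCm38 gene table, and 8126 stayed as in the files. Named genes are all members' probes; of each list, the called genes where 4 or fewer, otherwise the 2 highest and 2 lowest; and the 5 nearest acinar genes. Lpl was named after its value was seen, and 1 gene that the rule names is not reported here. Members, lists and the leading processing were chosen with earlier results of these data known. The p-values rest on the spread between 2 arrays, each with 1 mouse against the same pool, drawn toward a spread common to all tested probes. With 6.35 prior against 1 residual degrees of freedom, the common spread weighs more than that of the probe itself. Differences between mice and between arrays are both in that spread, and variation among euglycemic mice is not.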

Additional observations from a re-analysis of the deposited data

How the results depend on the processing

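The log ratio was also taken under 10 other processings of the same arrays. Each ratio sets a mouse against the pool on the same array, and the shared pool leaves variation among controls unknown. The count of lipase and colipase probes called higher, 4 of 7, was 0 with median centring after normexp, 0 with the filter on 1 channel and 0 with no filter on dim probes (where 4295 of 41162 probes had an unadjusted p under 0.05 in limma). It was between 3 and 6 under the other 7. The second Pnlip probe lost its call with normexp (offset 10) and loess (limma adjusted p = 0.0602) and with a further loess on intensity (0.066). Without replicate 1 the median of the 6 genes was 0.72 and without replicate 2 it was 0.22. That median was 4.66 with normexp (offset 50) and loess, 3.07 with offset 10, 2.92 with no background correction and loess, 1.59 with background-subtracted signals and median centring, and -0.48 with normexp and median centring. Of 5068 tested probes 1275 were called higher and 930 lower. Of 8804 probes 420 and 43 were called with normexp (offset 50) and loess, and 102 and 13 with offset 10. With normexp and median centring 2818 and 3041 of these 8804 were called. The filter on 1 channel gave 0 and 0, as did no filter.

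Signs changed as follows, and the cause was not tested. With median centring after normexp, Pnlip was at -0.35 (first probe) and -0.46 (second), Pnliprp2 at -1.34, Cel at -0.61, Pnpla2 at -0.63, Lpl at -0.81, Pdia2 at -1.34, Sycn at -0.10, Zg16 at -0.023, Ctrc at -0.24 and Prss3 at -0.013. The proteases and amylases had a median of -0.56 there and the granule and Reg genes of -0.70. Pla2g1b was at 0.85 with normexp (offset 50) and loess, 0.51 with offset 10, 0.35 with no background correction and 0.055 with background-subtracted signals. Amy2a5 was at 1.44, 0.17 and 0.024 and Amy1 at 2.01, 0.57 and 0.48 in the first 3 of these. A further loess on intensity put Cel at -0.039 and Lpl at -0.0042. Only Clps (0.12) and Pnliprp1 (0.0026) among the 6 genes stayed above 0 under every processing run.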

Other observations

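Genes that handle absorbed fat in the gut wall were read on the same arrays. Of 21 on the array, 3 passed the background flag in Cy3 and Cy5 of each array, and 1 was called lower. Fabp1, the fatty acid carrier of gut and liver, had log2 ratios of -2.55 and -4.12, a mean of -3.34 ± 1.11 (limma adjusted p = 0.000847). It was not called with the filter on 1 channel (limma adjusted p = 0.0613) or with no filter, where 0 probes were called in all. Under every other processing it was called lower, from -1.81 with normexp (offset 50) and loess to -3.63 with normexp and median centring. The fat-synthesis enzyme Dgat2 (-0.41 ± 0.27, adjusted p = 0.0832) and the fatty acid receptor Cd36 (-0.35 ± 0.03, adjusted p = 0.10) were not called in limma.

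Of 9 acinar transcription factor genes on the array 2 were measured. Bhlha15, which maintains the secretory state of acinar cells, was called lower at -0.75 ± 0.18 (limma adjusted p = 0.00912). It was not called in limma with normexp and loess (-0.16, adjusted p = 0.415 with offset 50 and -0.22, 0.477 with offset 10) or with no background correction and loess (-0.35, 0.074). Rbpjl, a subunit of PTF1, was at -0.06 ± 0.18 (limma adjusted p = 0.795).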
